A study of Drosophila melanogaster with 4 samples.

Results

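Rhino (Rhi) peaks on the left and right arms of chromosome 3 of *Drosophila melanogaster* are described here. They are every peak placed on the assembled sequences 3L or 3R in the peak lists of 2 ChIP-seq libraries, whereas peaks on the separate heterochromatic sequences 3LHet and 3RHet were not included. In ovaries with a control knockdown (GFP_KD), 204 of 1066 peaks lay on these arms, 111 on 3L and 93 on 3R. In ovaries with a knockdown of *enok* (*enok*_KD), 137 of 817 peaks did, 83 on 3L and 54 on 3R, so that both lists together held 341 of 1883 peaks. The rule used position alone and no measured value.

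Rhi is a germline paralogue of Heterochromatin Protein 1 that binds histone H3 methylated at lysine 9. With its partners Deadlock and Cutoff it permits transcription from both strands of dual-strand piRNA clusters, whose transcripts are cut into the small RNAs that silence transposons. Such clusters are rich in transposon fragments and many lie in the pericentromeric heterochromatin of an arm, while others lie in the repeats beside telomeres. Enok is a lysine acetyltransferase of the MYST family that acetylates histone H3.

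All flies carried 1 copy of each transgene of the MTD-Gal4 driver set, namely GAL4-nos.NGT, GAL4::VP16-nos.UTR and a GAL4::VP16 transgene under *otu* control, and an shRNA transgene at attP2, either VALIUM20-EGFP.shRNA.1 in GFP_KD or TRiP.HMS02634 in *enok*_KD. These drivers are active in the germline, so the somatic cells of the dissected ovaries kept Enok in both groups. RNAi was carried out at 29 °C, and the tissue was ovary from adults of 2 to 3 days. The protocol and the series title name Rhino as the antibody's target, whereas the design text of the series names RNA polymerase II. The libraries were treated as Rhi ChIP-seq. Each group had 1 input and 1 IP library. No difference below has a replicate check and none was tested. Intervals of shares are Wilson 95% intervals that cover counting error only. They treat neighbouring peaks as separate, although many lie close together. Intervals of medians are 95% order-statistic intervals that cover the spread among bins of the same libraries. Neither kind covers variation between libraries.

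The libraries held from 6658000 to 8196000 uniquely mapped reads, a depth read back from the smallest steps of the normalized bin values. The *enok*_KD IP was the shallowest, at 0.830 times the GFP_KD IP, and fewer peaks can be called in a shallower library. A scaling of the GFP_KD p scores by this ratio left 109 of 111 peaks on 3L and 93 of 93 on 3R above the weakest *enok*_KD score. Such a scaling can remove only peaks that score close to that minimum. The effect of depth on the peak lists was not tested. Only reads that mapped to a single place were used, so repeats that could not be told apart gave no peaks.

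The arms differed in how many Rhi peaks were listed in *enok*_KD. On 3L the number in *enok*_KD was 74.8% of that in GFP_KD (83 against 111), and on 3R it was 58.1% (54 against 93). Over the rest of the lists the corresponding share was 78.9% (680 against 862), and over 2L, 2R and X together it was 65.4% (299 against 457). The 3L value lay between these shares, and the 3R value lay below both but nearer to that of 2L, 2R and X than the 3L value did.

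The length of sequence under peaks separated the arms further. On 3L it was 43.4 kb in GFP_KD, a mean of 391 bp per peak, and 52.2 kb in *enok*_KD, a mean of 630 bp per peak. *enok*_KD thus held 120% of the GFP_KD length. On 3R it was 46.3 kb in GFP_KD, with a mean of 498 bp, and 24.9 kb in *enok*_KD, with a mean of 460 bp, which is 53.7%. For the rest of the lists the share was 91.0%, and for 2L, 2R and X together it was 65.3%. The direction on 3L rested on a single locus, source-locus cluster 6. Without the peaks that touch it, 35.9 kb in GFP_KD stood against 32.4 kb in *enok*_KD, and the share was 90.2%.

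Single peaks were alike in size and height across arms and lists. Median lengths on 3L were 310 bp for GFP_KD and 334 bp for *enok*_KD, and on 3R they were 338 bp and 369 bp. The shortest peak was 158 bp in the whole GFP_KD list and 189 bp in that of *enok*_KD, so the shortest peaks were listed in GFP_KD alone. The effect of this on the lengths was not tested. The authors' fold enrichment, which compares the IP with a background at the peak, had a median of 3.31 on 3L in GFP_KD, with quartiles of 2.64 and 4.44. The other medians were 3.35 on 3L in *enok*_KD, 3.51 on 3R in GFP_KD and 3.37 on 3R in *enok*_KD, all inside these quartiles. The lower number on 3R thus stood beside medians of height that differed by less than the quartile range.

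Peaks were densest beside the centromere on 3L and, in GFP_KD, on 3R. Distances were counted from the pericentromeric end of each assembled arm, the last base on 3L (taken as 24502317, the furthest base in the files) and the first base on 3R. Within 2 Mb of that end lay 54 of 111 GFP_KD peaks on 3L (48.6%, Wilson interval 39.6 to 57.8%) and 42 of 83 *enok*_KD peaks (50.6%, 40.1 to 61.1%). The 3L share was almost the same in both lists. On 3R, 26 of 93 GFP_KD peaks lay there (28.0%, 19.9 to 37.8%) and 9 of 54 *enok*_KD peaks (16.7%, 9.02 to 28.7%). The comparison depended on the width of the zone. At 2 Mb the GFP_KD intervals of the 2 arms did not overlap and those of the 2 lists on 3R did. Within 1 Mb, GFP_KD had 20.7% on 3L (14.2 to 29.2%) and 23.7% on 3R (16.2 to 33.2%), so these intervals overlapped, while *enok*_KD had 1.85% on 3R (0.328 to 9.77%), whose interval lay below that of GFP_KD. Within 3 Mb the GFP_KD intervals of the arms overlapped (39.6 to 57.8% and 27.5 to 46.7%).

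**Figure D1:**
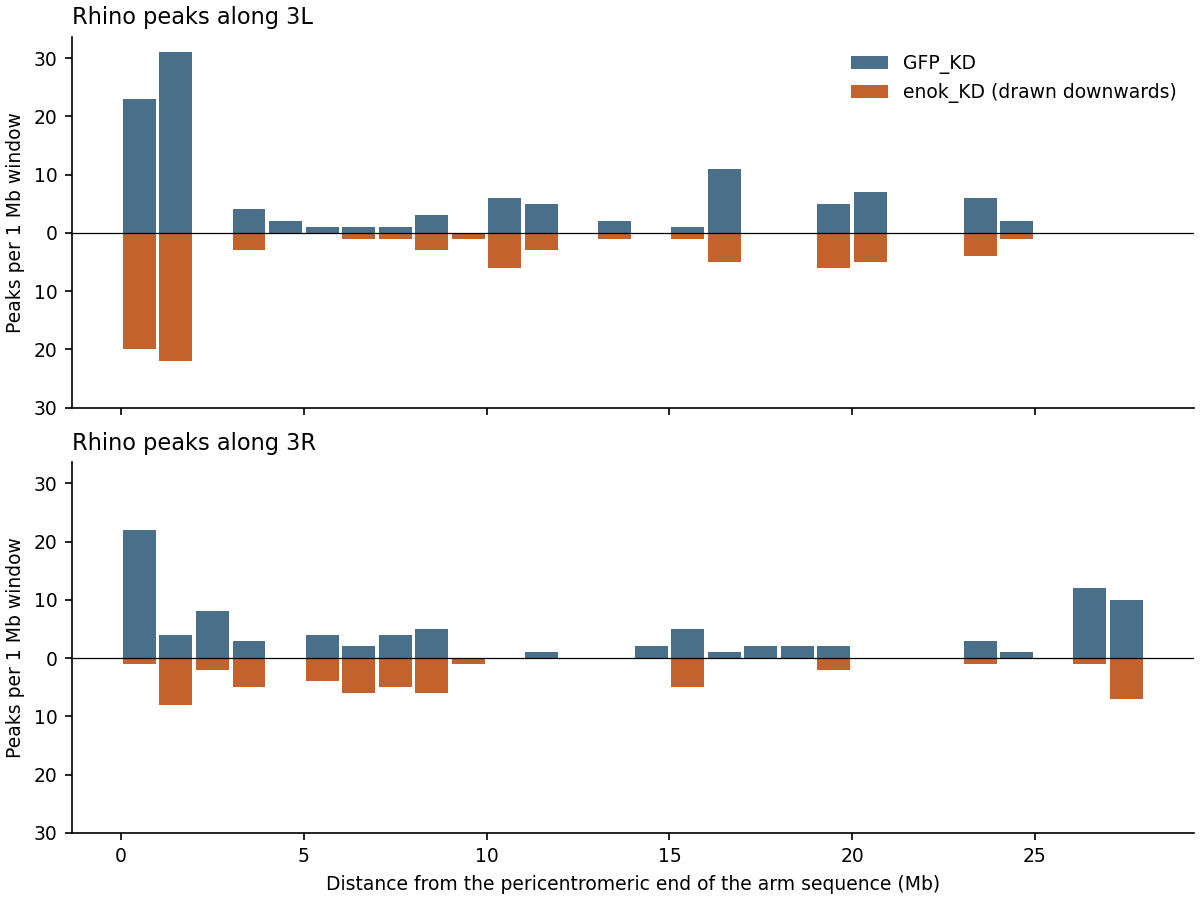
Number of Rhi peaks per 1 Mb window (vertical axis, GFP_KD upwards and *enok*_KD downwards) against the distance from the pericentromeric end of 3L and 3R in Mb (horizontal axis). The first 1 Mb of 3R held 22 GFP_KD peaks and 1 *enok*_KD peak, whereas the first 1 Mb of 3L held 23 and 20.

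In windows of 1 Mb the deficit on 3R was concentrated in a few places. The first window held 22 GFP_KD peaks and 1 *enok*_KD peak, the window from 26 to 27 Mb held 12 and 1, and the window from 2 to 3 Mb held 8 and 2. Other 3R windows held more peaks in *enok*_KD, with 4 and 8 from 1 to 2 Mb and 2 and 6 from 6 to 7 Mb. Of 28 windows on 3R, 11 had fewer peaks in *enok*_KD, 6 had more, 3 had the same number above 0 and 8 were empty in both lists. Without the first window, 71 GFP_KD peaks stood against 53 in *enok*_KD (74.6%). When the window from 26 to 27 Mb was also left out, the numbers were 59 and 52 (88.1%), and the covered length was 75.9%. These windows were left out for their large differences, so a higher share is a result of that choice.

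On 3L the windows with most peaks held many in both lists. From 1 to 2 Mb there were 31 GFP_KD and 22 *enok*_KD peaks, from 0 to 1 Mb there were 23 and 20, and from 16 to 17 Mb there were 11 and 5. These were also the 3 windows of 3L with the largest difference in number. Of 25 windows on 3L, 11 had fewer peaks in *enok*_KD, 2 had more, 5 had the same number above 0 and 7 were empty in both lists. No window of 3L with more than 2 GFP_KD peaks was empty in *enok*_KD.

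The tips of the arms were unlike each other. The last 1 Mb of 3L held 2 GFP_KD peaks and 1 *enok*_KD peak. The peak nearest to that tip lay at chr3L:43114-43379 in GFP_KD, with a fold enrichment of 3.90, and at chr3L:43048-43445 in *enok*_KD, with 2.80. The last 1 Mb of 3R held 11 and 7 peaks, and 10 of the former and all 7 of the latter lay in a single group within the last 10.5 kb covered by peaks.

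A peak was counted as found in both lists where it overlapped a peak of the other list by at least 1 bp. Over all sequences, this rule was met by 49.1% of the peaks in GFP_KD and 63.9% in *enok*_KD. On 3L, 71 of 111 GFP_KD peaks did (64.0%, Wilson interval 54.7 to 72.3%), and on 3R 30 of 93 did (32.3%, 23.6 to 42.3%). Their intervals did not overlap, although those counted by group of linked peaks, given below, did. On 2L, 2R and X together the share in GFP_KD was 38.3% (34.0 to 42.8%), so the 3R interval overlapped that of the other main arms and the 3L interval lay above it. Seen from *enok*_KD the arms were closer, with 60 of 83 on 3L (72.3%, 61.8 to 80.8%) and 34 of 54 on 3R (63.0%, 49.6 to 74.6%). A gap between the arms was therefore seen among GFP_KD peaks, and the *enok*_KD intervals of the arms overlapped.

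The zone beside the centromere set the arms apart most. Within 2 Mb of the pericentromeric end, 35 of 54 GFP_KD peaks on 3L overlapped an *enok*_KD peak (64.8%, 51.5 to 76.2%), against 5 of 26 on 3R (19.2%, 8.51 to 37.9%). Between this zone and the last 1 Mb the counts were 35 of 55 on 3L (63.6%, 50.4 to 75.1%) and 19 of 56 on 3R (33.9%, 22.9 to 47.0%). The 3L share was thus much the same in both zones. On 3R it was low in both.

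Peaks found in both lists were higher and longer than the others. Among GFP_KD peaks on 3L, the median fold enrichment was 3.85 with an overlap and 3.02 without, and the median length was 344 bp and 241 bp. On 3R the medians were 4.32 and 3.39 for fold enrichment and 578 bp and 313 bp for length. Among *enok*_KD peaks the fold enrichments were 3.47 and 3.02 on 3L and 3.85 and 3.13 on 3R. A longer peak is more likely to be overlapped, so length and overlap are not separate measures here.

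**Figure D2:**
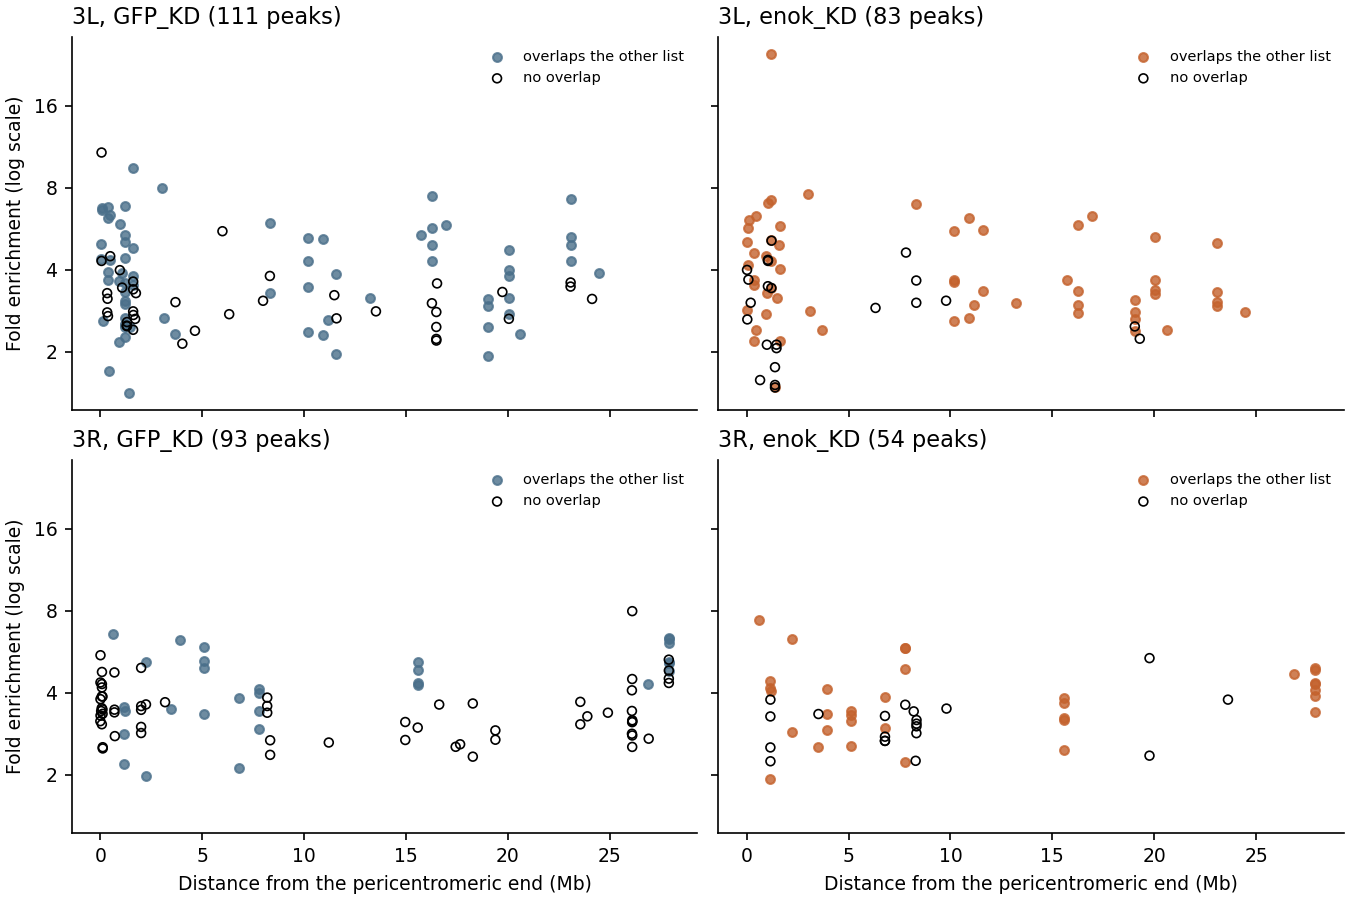
Fold enrichment of each peak (vertical axis, log scale) against its distance from the pericentromeric end in Mb (horizontal axis) for each arm and list, with filled points for peaks that overlap the other list by at least 1 bp and open points for the rest. In 3R of GFP_KD 63 of 93 points are open, including all those in the first 0.119 Mb, and the highest point, at 24.8, is the *enok*_KD peak in cluster 6 of 3L.

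The highest GFP_KD peak on 3L, at chr3L:24441826-24442120, had a fold enrichment of 10.8 and no *enok*_KD peak over it. It lay 0.0603 Mb from the pericentromeric end. The next was chr3L:22892468-22893310, with 9.44 in GFP_KD and 4.93 in *enok*_KD. The third, at chr3L:21491552-21491869, was nearly as high in both lists, with 7.95 in GFP_KD and 7.56 in *enok*_KD. The largest GFP_KD peaks of 3L thus ranged from a peak absent from the other list to a peak of almost equal height. Other high GFP_KD peaks of 3L without an overlap were chr3L:18510563-18510740 at 5.53 and chr3L:24016100-24016389 at 4.48.

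On 3R the highest GFP_KD peak, chr3R:26099629-26100074, had a fold enrichment of 7.97 and no overlap. The second, chr3R:627770-628043, had 6.56 in GFP_KD and 7.42 in *enok*_KD. It was the only locus in the first 1 Mb of 3R with an *enok*_KD peak, and that peak was also the highest of the *enok*_KD list on this arm. The *enok*_KD peaks that followed it, chr3R:2242356-2242774 at 6.29 and chr3R:7780001-7782019 at 5.85, each overlapped GFP_KD peaks. The highest without an overlap was chr3R:19768292-19768848 at 5.36.

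The longest peaks differed in how they were divided. The longest GFP_KD peak of 3R, chr3R:3927807-3930539, was 2733 bp long with a fold enrichment of 6.27, and in *enok*_KD 3 separate peaks over 1.31 kb lay within it, the highest at 4.14. The longest GFP_KD peak of 3L, chr3L:23293203-23294808 in cluster 6, was 1606 bp long with 6.85. Away from clusters on 3L, chr3L:14307416-14308802 was 1387 bp long in GFP_KD with 5.24, and chr3L:16178926-16180946 was 2021 bp long in *enok*_KD with 6.99. Long peaks were thus found in either list, and a long peak in 1 list could be several in the other.

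Peaks did not lie evenly along the arms. Neighbouring peaks on 3L were a median of 1858 bp apart in GFP_KD against 1884 bp in *enok*_KD, and on 3R 1219 bp against 961 bp. The upper quartile was far larger, at 139 kb and 230 kb on 3L and 251 kb and 404 kb on 3R. Within 10 kb of another peak of their list lay 72.1% of GFP_KD and 78.3% of *enok*_KD peaks on 3L, and 83.9% and 83.3% on 3R. Short gaps inside clusters of peaks were therefore mixed with long empty stretches, the longest of which were 2.46 and 2.64 Mb on 3L and 4.17 and 5.76 Mb on 3R.

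Joined across gaps of 10 kb or less, the GFP_KD peaks formed 51 runs on 3L and 35 on 3R, and the *enok*_KD peaks formed 36 and 19. A run held a mean of 2.18 peaks in GFP_KD and 2.31 in *enok*_KD on 3L, and 2.66 and 2.84 on 3R. The number of peaks per run was thus similar in both lists, and the number of runs was lower in *enok*_KD. The median gap between runs was 224 kb and 406 kb on 3L and 557 kb and 1032 kb on 3R.

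**Figure D3:**
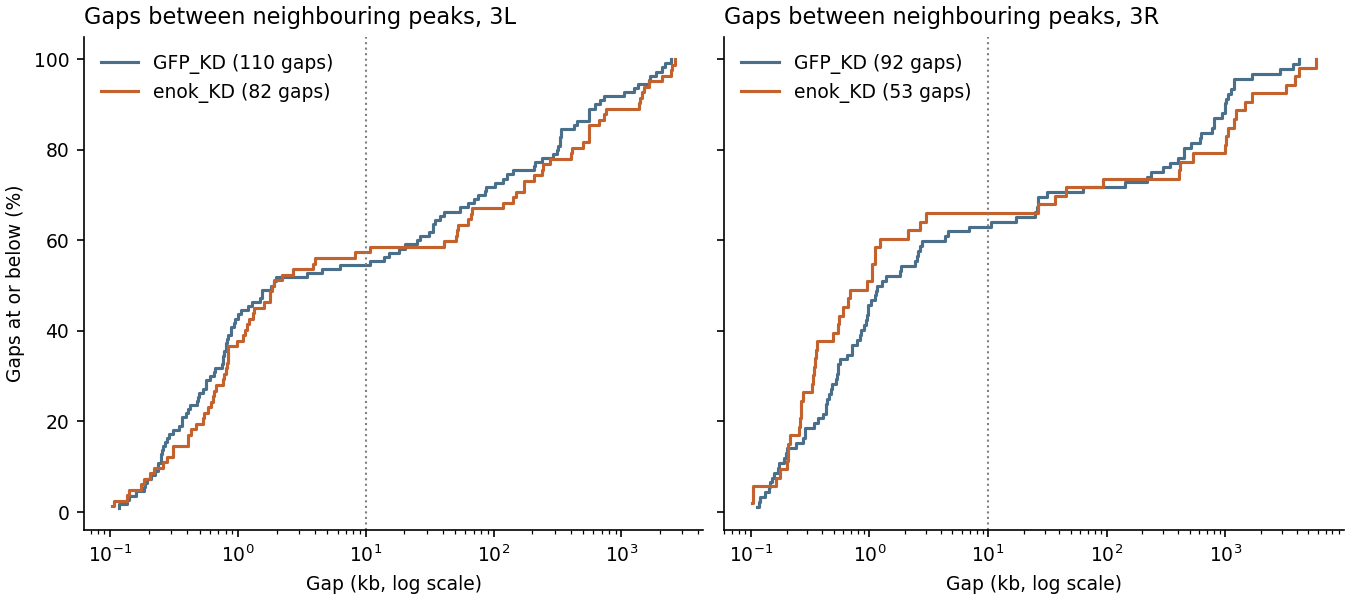
Percentage of gaps (vertical axis) at or below a given size in kb (horizontal axis, log scale) for neighbouring peaks of the same list on 3L and 3R, with a dotted line at 10 kb. Each curve rises below 2 kb, is nearly flat around 10 kb and rises again above 20 kb, so gaps fall into short ones inside runs and long ones between runs.

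When peaks of both lists were linked together by the same 10 kb rule, 3L held 56 groups and 3R 40. On 3L, 31 groups held peaks of both lists, 20 held GFP_KD peaks alone and 5 held *enok*_KD peaks alone. On 3R the numbers were 14, 21 and 5. Groups with a GFP_KD peak thus also held an *enok*_KD peak in 60.8% of cases on 3L (47.1 to 73.0%) and 40.0% on 3R (25.6 to 56.4%). Groups with an *enok*_KD peak also held a GFP_KD peak in 86.1% of cases on 3L (71.3 to 93.9%) and 73.7% on 3R (51.2 to 88.2%). Counted by group, the order of the arms was as by peak, but the intervals overlapped. Peaks of the other sequences were not grouped, so no share over the whole lists stands beside these.

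Of the 63 GFP_KD peaks on 3R without an overlap, 52 lay in groups that had no *enok*_KD peak at all. On 3L this held for 26 of 40. The same share was not computed for the other arms, so these counts do not show whether either arm was unusual. The *enok*_KD peaks without an overlap were mostly close to GFP_KD peaks, with 18 of 23 on 3L and 14 of 20 on 3R in a group that held both. Larger groups from GFP_KD alone were also counted. Those of 3 or more peaks numbered 7 on 3R, with 34 peaks, and several of these groups lay close together. On 3L there was 1, with 4 peaks at chr3L:8013330-8016806, a group picked out only once its values had been seen. The minimum of 3 was not set in advance. No group of 3 or more came from *enok*_KD alone on either arm.

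**Figure D4:**
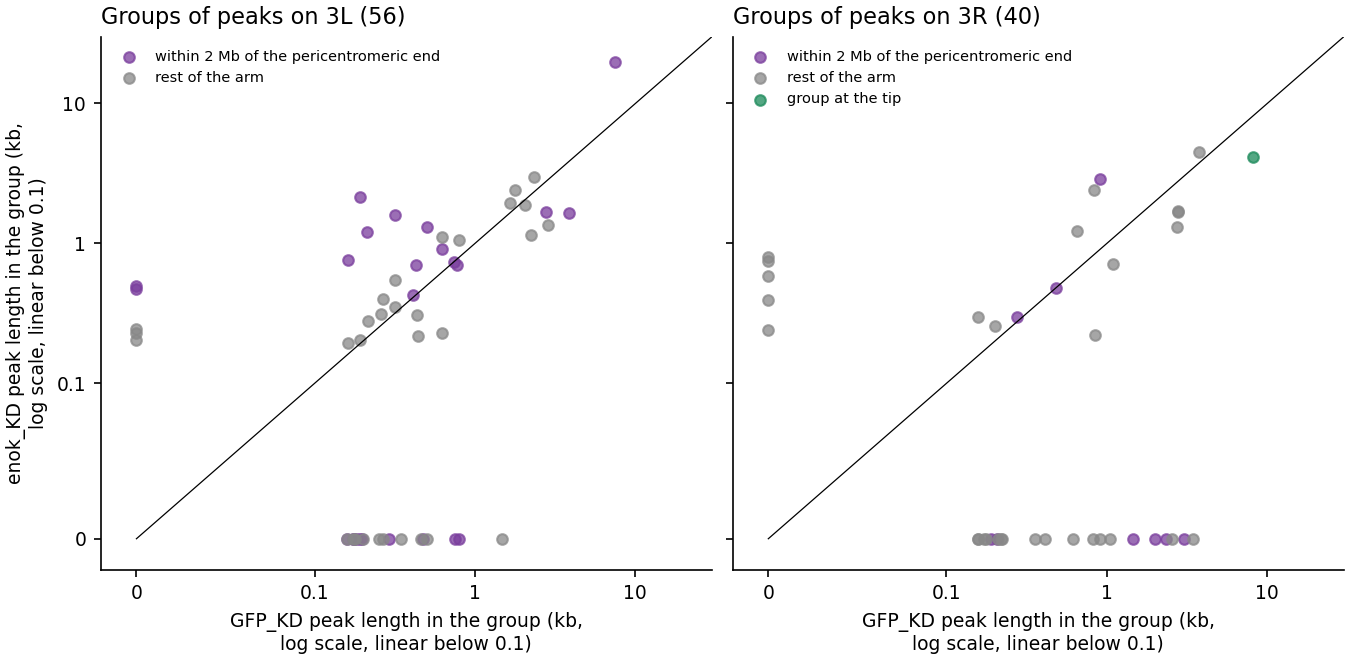
Length under peaks in each group of linked peaks, GFP_KD on the horizontal and *enok*_KD on the vertical axis, in kb on axes that are logarithmic above 0.1 kb and linear below it, with the line of equality. On 3L the highest point is cluster 6 (7.45 kb against 19.8 kb), and on 3R 21 groups lie on the horizontal axis because they hold no *enok*_KD peak.

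In the most proximal stretch of 3R a whole block of GFP_KD peaks had no counterpart. Between chr3R:1041 and chr3R:118818, a span of 118 kb, GFP_KD had 17 peaks that covered 6.98 kb, and *enok*_KD had 0. Their fold enrichments ran from 2.50 to 5.49 with a median of 3.51, which is that of the whole arm. The nearest *enok*_KD peak was 509 kb further along the arm. The 17 peaks had −log10 p scores from 7.60 to 36.4, and the lowest, scaled by the depth of the *enok*_KD IP, was 6.30, above the 5.07 of the weakest *enok*_KD peak listed. The part of depth in this block was not tested.

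This block comprised 3 groups of at least 5 peaks and 1 lone peak. The group nearest to the centromere, chr3R:1041-9761, held 5 peaks with fold enrichments of 3.15, 4.36, 3.79, 5.49 and 3.30 in the order of their position. The highest of them, chr3R:7912-8623, lay in source-locus cluster 42. The next groups were chr3R:67788-81311 with 6 peaks and a maximum of 4.77, and chr3R:106022-118818 with 5 peaks and a maximum of 3.87. The peaks of the block were thus of ordinary height for the arm and spread over its first 0.119 Mb.

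Other groups of at least 5 peaks with no *enok*_KD counterpart lay further out on 3R. The group chr3R:2001066-2005517 held 5 GFP_KD peaks with fold enrichments from 2.85 to 4.94. The group chr3R:26096600-26102094 held 7 GFP_KD peaks in 5495 bp, from 2.53 to 7.97, and the last value was the highest of the arm. A locus with the strongest control peak of 3R was thus without any *enok*_KD peak.

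At the same time, several 3R groups held more in *enok*_KD. The group chr3R:1164395-1169118 held 3 GFP_KD peaks over 0.905 kb and 7 *enok*_KD peaks over 2.88 kb, and its highest fold enrichment was 3.55 and 4.41. The group chr3R:6784006-6788784 held 2 peaks over 0.835 kb in GFP_KD and 6 over 2.42 kb in *enok*_KD, with maxima of 3.82 and 3.87. The group chr3R:8329249-8336332 held 2 and 4 peaks, none of which overlapped. A lower count on the arm as a whole thus went with higher counts at 5 of the 14 groups found in both lists, against lower counts at 3 and equal counts at 6. Among the 5 was chr3R:3927807-3930539, where 1 GFP_KD peak over 2.73 kb stood against 3 *enok*_KD peaks over 1.31 kb. Its higher count thus went with less peak length.

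Away from the pericentromeric 2 Mb and the tip of 3R, groups of at least 5 peaks were of similar extent. There were 7 such groups on 3L, from 3.77 to 5.12 kb with a median of 4.41 kb, and 8 on 3R, from 4.45 to 7.33 kb with a median of 4.82 kb. Of these 15 groups, 10 spanned between 4 and 6 kb, bounds that were chosen after the spans were seen. All 7 on 3L and 6 of 8 on 3R held peaks of both lists, but the minimum was set on the sum of both lists, which favours such groups. Among all groups outside the zone and the tip, of any size, 18 of 31 on 3L and 10 of 30 on 3R held both. The groups on 3L held 31 GFP_KD and 26 *enok*_KD peaks in all, and those on 3R 32 and 26. The exceptions among the larger groups were those at 2001066 and 26096600 on 3R, named above.

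Within these groups the overlapping peaks of both lists often differed in height. At chr3L:1424896-1429626, fold enrichments at the 4 overlapping pairs were 7.27 and 5.02, 5.26 and 2.95, 4.91 and 3.03, and 4.30 and 3.32 in GFP_KD and *enok*_KD, each lower in the latter. At chr3R:5104924-5109631 the 4 pairs were 5.22 and 3.32, 3.35 and 2.56, 4.92 and 3.14, and 5.90 and 3.44. Again every pair was lower in *enok*_KD. At chr3R:15570121-15574986 all 5 pairs, some of which share a GFP_KD peak, were lower. Their log2 ratios of *enok*_KD over GFP_KD ran from −0.79 to −0.34.

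The group chr3R:7779165-7786498 went the other way. Its pairs gave log2 ratios from −0.62 to 0.99 with 4 of 5 above 0, and a single *enok*_KD peak of 2019 bp, the longest of 3R in that list, lay over 2 GFP_KD peaks of 521 and 1231 bp. On 3L, chr3L:12912981-12917393 had 2 pairs, both higher in *enok*_KD (0.54 and 0.77), whereas chr3L:8227085-8231834 had 4 pairs, all lower (−0.77 to −0.35). Groups of like extent on the same arm thus differed in direction.

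Across all overlapping pairs, the median log2 ratio of fold enrichment was 0.08 on 3L, with 43 of 73 pairs higher in *enok*_KD, and −0.36 on 3R, with 22 of 35 lower. The pairs ranged from −0.94 to 3.46 on 3L and from −1.10 to 0.99 on 3R. On both arms a peak that overlapped several peaks of the other list entered several pairs, so pairs are not separate loci. A pair compares the heights of 2 whole peaks, whose summits can lie far apart. They were 5852 bp apart at the highest ratio of 3L and 1546 bp at the lowest of 3R. On 3L the group of cluster 6 supplied 14 pairs, many of which share a single *enok*_KD peak, and without it the median was 0.005 with 30 of 59 higher. Summits of a pair lay a median of 40 bp apart on 3L and 52 bp on 3R, and 71.2% and 65.7% of pairs were within 100 bp. Pairs were chosen by overlap, which limits how far apart their summits can lie. Heights varied among pairs by more than their median difference.

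Cluster 6 was the exception in length. In the 23.5 kb group chr3L:23282767-23306292, GFP_KD had 13 peaks over 7.45 kb, and *enok*_KD had 7 peaks over 19.8 kb. The 17107 bp peak chr3L:23289186-23306292 was the longest of the *enok*_KD list, with a fold enrichment of 24.8, and 10 separate GFP_KD peaks lay under it. Those 10 covered 5.82 kb, from 2.26 to 6.85 in fold enrichment with a median of 2.86. Fewer peaks but more peak length, and 1 far longer and higher peak, were thus listed here in *enok*_KD.

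The other groups of at least 5 peaks in the pericentromeric 2 Mb of 3L varied. The group chr3L:22881150-22893839 held 9 peaks over 3.86 kb in GFP_KD and 4 over 1.64 kb in *enok*_KD, and the group chr3L:24126309-24131089 in cluster 25 held 5 over 2.76 kb and 4 over 1.69 kb. By contrast, chr3L:23455122-23458528 in cluster 32 held 1 peak over 0.213 kb and 4 over 1.21 kb, with maxima of 3.88 and 6.99. The group chr3L:24469030-24483299 in cluster 58, nearest to the centromere, held 2 peaks over 0.502 kb and 4 over 1.30 kb. At chr3L:23106147-23110885 there were 1 peak over 0.318 kb and 4 over 1.60 kb, and at chr3L:24415038-24416703 there were 2 over 0.428 kb and 3 over 0.701 kb. Of the 6 groups of at least 5 peaks beside that of cluster 6, 4 thus held more peak length in *enok*_KD and 2 held less. The 2 Mb next to the centromere of 3R likewise held loci of both kinds. A lone peak in cluster 65 was 191 bp long in GFP_KD, with a fold enrichment of 2.59, and 2163 bp in *enok*_KD, with 6.09.

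At the tip of 3R the peaks formed a regular array. The last 6 GFP_KD peaks had summits 987, 965, 985, 999 and 957 bp apart, and the last 6 *enok*_KD peaks had summits 964, 918, 1074, 971 and 979 bp apart. These peaks lay between chr3R:27898246 and chr3R:27905005, the last base of 3R in the files. A spacing near 1 kb was thus seen in both lists. The repeats beside *Drosophila* telomeres are known to be arranged in tandem, and no repeat annotation was used here.

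The array was lower in *enok*_KD throughout. Its 6 GFP_KD peaks had fold enrichments of 6.36, 5.15, 4.79, 5.19, 6.12 and 6.29 towards the tip, and its 7 *enok*_KD peaks had 4.95, 4.33, 4.84, 4.10, 3.89, 3.40 and 4.30. All 7 overlapping pairs were lower in *enok*_KD, with a median log2 ratio of −0.42 (−0.85 to −0.09), and in none was the *enok*_KD peak the longer. On the side away from the tip, 4 further GFP_KD peaks between 27894549 and 27897681, at 5.29, 4.51, 4.35 and 4.83, had no *enok*_KD peak. The whole group held 10 peaks over 8.13 kb in GFP_KD against 7 over 4.12 kb in *enok*_KD.

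The array stood out by its p scores as well. Its GFP_KD peaks had −log10 p from 97.8 to 129, whereas the 28 other GFP_KD peaks on 3L and 3R of like fold enrichment (4.81 to 6.33) had 20.4 to 55.7. A larger score at an equal ratio means that more reads lay under these peaks. The number of copies of the sequence in these flies was not measured, and its part in the result was not tested.

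Rhi occupancy was also tabulated in 1 kb bins at Rhi-dependent source loci, numbered clusters that give rise to piRNAs, in RPM, reads scaled to the uniquely mapped reads of the library. Occupancy is given here as log2 of IP over input, and a change as *enok*_KD minus GFP_KD. The bins come from the same libraries as the peaks, so they show the size of a difference and are no independent check. On 3L, 28 of 247 bins overlapped a peak of either list. In the median they stood at 1.18 in GFP_KD against 2.77 in *enok*_KD, a change of 1.84 (median of the changes, 1.05 to 2.12), with 1 of 28 bins lower. On 3R, 8 of 20 bins overlapped a peak, with medians of 2.15 and 0.50 and a median change of −1.45 (−2.57 to −0.59), and all 8 were lower. A bin entered through a peak of either list, which can set its direction. On 3R 7 of the 8 bins had a GFP_KD peak alone, and on 3L 13 of the 28 had an *enok*_KD peak alone and 1 a GFP_KD peak alone. The 14 bins of 3L with a peak in both lists were all higher in *enok*_KD, and most lay in cluster 6. These medians are therefore a description of the chosen bins. Over all tabulated bins, the median change was 0.15 on 3L (0.05 to 0.24, 98 of 247 lower). On 3R it was −0.77 (−1.32 to −0.49, 18 of 20 lower). In bins without a peak, it was 0.08 on 3L (219 bins) and −0.50 on 3R (12 bins). The difference between the arms was not tested. Most of the 28 chosen bins on 3L belonged to cluster 6, and the 8 bins outside it had a median change of 0.92. Each bin also carried a deposited label, Enok-bound or Enok-unbound. All 20 bins of 3R were Enok-bound, against 64 of 247 on 3L, and cluster 6 was Enok-unbound. On 3R arm and label therefore cannot be told apart.

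In cluster 6 the change was largest under the longest peak. The 17 bins within the 17107 bp peak were all higher in *enok*_KD, by 1.62 to 2.51 with a median of 2.12. The 7 bins before the first peak of the group and the 8 bins after the last had medians of 0.10 and 0.13. In GFP_KD occupancy reached 2.59 at most, and in *enok*_KD it reached 4.81, with 12 of 36 bins above 3. Of the 36 bins, 21 were higher by more than the 95% interval of their counting error.

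In clusters 42 and 11 on 3R most bins were lower in *enok*_KD. In cluster 42, at chr3R:6252-22624, the 4 bins with a GFP_KD peak had occupancies of 1.87, 1.41, 1.89 and 1.18 in GFP_KD and −0.70, −0.45, −0.42 and −0.30 in *enok*_KD. IP was thus below input in those 4 bins of *enok*_KD. They were covered by 127 to 357 IP reads in GFP_KD and by 29 to 54 in *enok*_KD, from inputs of 43 to 93 and 50 to 89 reads. Over all 16 bins of the cluster the medians were 1.18 for GFP_KD and 0.28 for *enok*_KD, and the bins further from the centromere, where no peak was called, differed less.

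In cluster 11 the 4 bins lay between 27895169 and 27899000, mostly on the side of the array away from the tip, and 1 of them reached into the array. They had occupancies of 2.42, 2.72, 2.90 and 3.51 in GFP_KD and 1.46, 1.30, 1.59 and 2.93 in *enok*_KD. All 4 were lower in *enok*_KD by more than the 95% interval of their counting error, and all 4 stayed above input. Most of the array itself was not covered by bins.

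**Figure D5:**
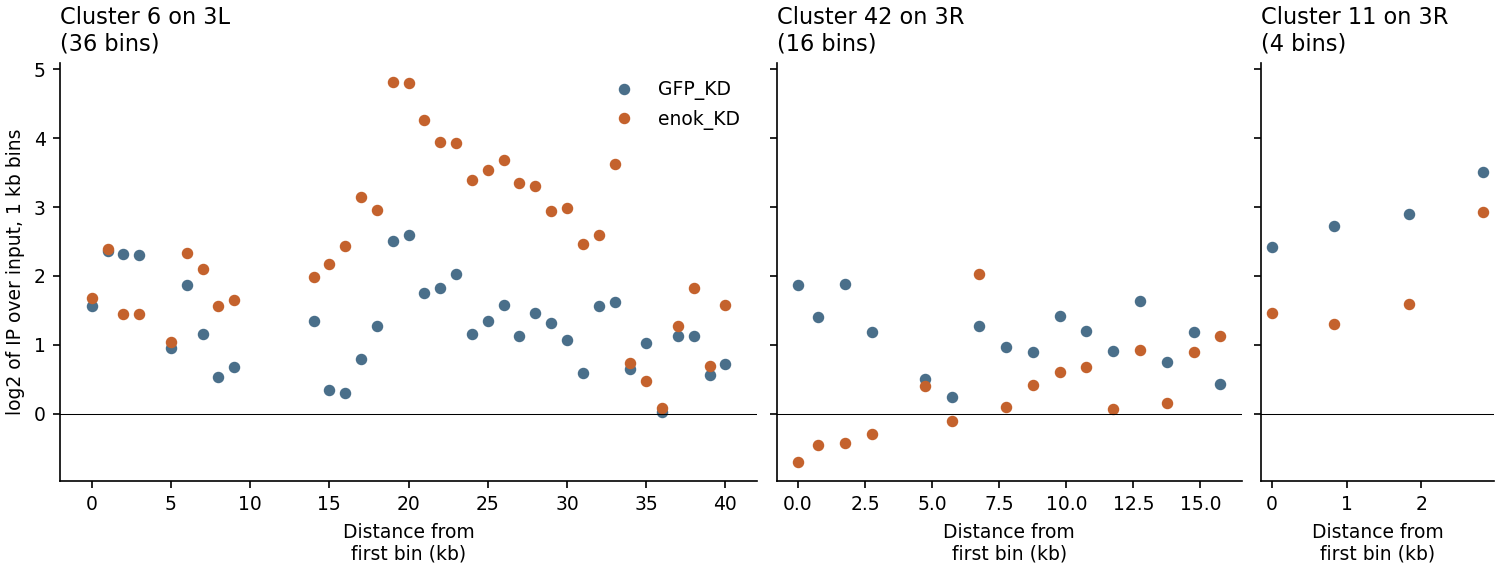
Rhi occupancy, as log2 of IP over input (vertical axis), in 1 kb bins against the distance from the first bin in kb (horizontal axis) for cluster 6 on 3L and clusters 42 and 11 on 3R. In cluster 6 the *enok*_KD points rise to 4.81 while the GFP_KD points stay at or below 2.59, and in cluster 42 the 4 *enok*_KD points nearest to the start lie below 0.

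Most other clusters on 3L held few peaks and small median changes over their bins. The median change over all bins was 0.50 in cluster 32, 0.19 in cluster 58, 0.08 in cluster 25 and 0.01 in clusters 40 and 65. It was −0.34 in cluster 48, with 6 bins, where the only GFP_KD peak had no counterpart. Clusters 75, 86 and 91 held no peak in either list, with medians of −0.01, −0.33 and 0.17. In clusters 25 and 40 no tabulated bin overlapped a peak, so their medians do not cover the peaks listed there. The 4 overlapping pairs of peaks in cluster 25 had a median log2 ratio of fold enrichment of −0.69, and 3 of them were lower in *enok*_KD. The 219 bins of 3L without a peak had a median change of 0.08 and ranged from −3.08 to 3.41, wider than the 28 bins with a peak (−0.67 to 2.51). They were more numerous and held fewer reads, with median IP reads of 53 in GFP_KD and 49 in *enok*_KD. The bins with a peak had 190 and 540, so the ranges are not directly comparable.

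Most peaks of both arms lay outside these clusters. On 3L, 24 of 111 GFP_KD and 20 of 83 *enok*_KD peaks touched a cluster, and on 3R 8 of 93 and 1 of 54 did. Outside the clusters, 87 peaks over 31.8 kb in GFP_KD stood against 63 over 26.04 kb in *enok*_KD on 3L, which is 81.9% of the length. On 3R, 85 peaks over 41.4 kb stood against 53 over 24.6 kb, which is 59.5%. The lower peak length on 3R was therefore also seen where no source locus had been tabulated.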

How the data were processed

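The authors aligned single-end reads to UCSC dm3 with Bowtie2 version 2.2.1, allowing no mismatch and keeping unique mappers. The submitters' processing notes also name Trimmomatic and MACS2, with no role, and the control used for the peak calls is not given in the sources used here. The deposited peak lists, 1 per IP, give a fold enrichment (a ratio) and −log10 p and q. The authors' bin tables give RPM per 1 kb bin, divided by a mappability index, for input and IP, with Enok-bound or Enok-unbound as the other deposited label.

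Read depth was recovered because bin values were whole multiples of 1 read in 2364 of 2364 bins (100%). Bin values were compared as log2 of IP over input without a pseudocount, and medians carry 95% order-statistic intervals. Distances are from peak midpoints. Named regions were the 3 highest, 3 longest and 3 highest non-overlapping peaks per arm and list, the 3 windows with most peaks or the largest difference, groups of at least 5 peaks, clusters of at least 5 bins and the peaks nearest to each end. Cluster 11, with 4 bins, was added after its values were seen. The regions and lists were chosen with earlier results of these data known. Alternatives concerned peak thresholds, overlap, merging, zones, pseudocount and low bins. Python 3.11.15, numpy 2.4.6, pandas 2.3.3 and matplotlib 3.10.9 were used, and scripts were tested on simulated data. Without a dm3 genome or annotation, no sequence or gene is given.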

Additional observations from a re-analysis of the deposited data

Results flagged for a closer look

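Values below and above those of GFP_KD were seen on different arms in 2 quantities, and neither difference between the arms was tested. Covered length in *enok*_KD was 120% of that in GFP_KD on 3L and 53.7% on 3R. The 3L value became 90.2% without cluster 6, so the opposite direction was not seen there. The median log2 change of occupancy in source-locus bins with a peak was 1.84 on 3L and −1.45 on 3R, and it was 0.92 on 3L without cluster 6 and −2.09 on 3R without cluster 11. These bins were chosen by the peaks of the same libraries, which can set their direction. On 3R 7 of 8 entered through a GFP_KD peak alone, and on 3L 13 of 28 entered through an *enok*_KD peak alone. Over all tabulated bins the median change was 0.15 on 3L and −0.77 on 3R, where every bin carried the label Enok-bound.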

How the results depend on the processing

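There were 83 alternative values for 26 results, 9 of them chosen after seeing the data. Of these 83, 59 kept their direction and stayed near the main value, 23 moved further and 1 reversed. For shares of peaks and for medians, near meant within the counting error or spread of the main value. Peak numbers and covered lengths had no such interval and were judged by the size of the change alone. The covered length on 3R was thus counted as near at 75.9%, against a main value of 53.7%. The reversal was the covered length on 3L, at 90.2% without cluster 6, and the median change in its bins was then 0.92. Without the first 1 Mb and the window from 26 to 27 Mb, the number on 3R was 88.1% and the covered length 75.9%. Under a reciprocal overlap of 50% the shares of GFP_KD and *enok*_KD peaks with an overlap were 40.5% and 54.2% on 3L and 22.6% and 38.9% on 3R. With a gap of 1 kb or less allowed they were 73.9% and 84.3% on 3L and, for *enok*_KD, 75.9% on 3R. A pericentromeric zone of 1 Mb held 20.7% and 24.1% of GFP_KD and *enok*_KD peaks on 3L and 23.7% and 1.85% on 3R, and the GFP_KD order of the arms was then reversed, with overlapping intervals. Peaks merged within 1 kb had median gaps of 94956 and 143073 bp on 3L and 179970 and 408349 bp on 3R, since merging removes the short gaps, and median lengths of 450.5 bp (3L, *enok*_KD), 587 and 581 bp (3R). Peaks whose fold enrichment reached the median of both lists had median gaps of 61862 bp (3L, *enok*_KD) and 14183 bp (3R, *enok*_KD) and median lengths of 459 and 557 bp on 3R. No paired analysis was possible because either knockdown has only 1 IP and 1 input. With 1 library a group, the depth limits the lists to peaks above a −log10 p of about 5, and a peak absent from a list may lie below that.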
